A study of Mus musculus and synthetic construct with 33 samples.

Results

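The region examined here is the stretch of mouse chromosome 17 that lies 1 to 25 Mb above linc-p21 (Trp53cor1), on the side of the telomere. Its members are all annotated genes whose transcription start lies 1 to 25 Mb above position 29078961 of chromosome 17 in build mm10, the annotated start of Trp53cor1 on the minus strand, leaving out Glo1, Dnah8, Btbd9, Glp1r, Ier3, Tspo2, Ccnd3, Vegfa, Col11a2 and all symbols that begin with H2-. The rule uses position and name and no expression value, and it found 469 of the 26754 genes listed in each organ table. The window itself held 516 genes, of which 38 were left out for a symbol beginning with H2- and 9 by name. By annotation, 399 members are protein coding, 29 are lincRNAs, 27 are antisense genes, 10 are processed transcripts and 4 are pseudogenes. The first member inside the lower end is Gm9874 at 30485511, and the nearest gene outside that end is Zfand3 at 30005087. At the upper end the last member is Sult1c1 at 53990674, and the next gene, Slc5a7, starts at 54299034.

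Polyadenylated RNA was sequenced from 4 organs of mouse embryos at E14.5 (days of embryonic development), namely heart, hindlimb, liver and lung. Embryos were either wild-type (WT) or mutant (KO) for the Trp53cor1tm1.1Vlcg allele, a targeted allele that carries a LacZ reporter. Both genotypes had a 129S6/C57BL/6 background, given as N3 with no Neo, and no source used here gives the strain origin of this stretch of chromosome 17 in each embryo. Heart, hindlimb and lung had 3 WT and 3 KO libraries each, and liver had 5 WT and 4 KO libraries, with 1 female embryo in each group. The 27 libraries came from 17 embryos of 7 litters, 10 embryos gave more than 1 organ, and heart and liver had 5 embryos in common. In heart and lung each litter gave both genotypes. In hindlimb only a single litter did, so genotype was partly tied to litter there. Liver WT came from 4 litters and liver KO from 3. The authors' tables hold 1 pooled value per gene and genotype in FPKM (sequenced fragments per kilobase of transcript, scaled to the size of the library), so no spread between embryos accompanies any value below and read depth is not given. A gene was called when the authors' q-value, their p-value adjusted over all tested genes of an organ, was under 0.05.

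Linc-p21 is transcribed into a long noncoding RNA beside Cdkn1a, the gene of the cell cycle inhibitor p21, and it was first described as a target of the tumour suppressor p53. The flank beyond it holds several families that sit together on the chromosome. Nearest to the locus are zinc finger and trefoil factor genes, followed by the mouse major histocompatibility complex with its antigen processing, complement and tumour necrosis factor genes. Farther out lie a cluster of olfactory receptors, genes of the Enpp and Clic families, and the cluster of Trem receptors of myeloid cells with Apobec2 and Unc5cl beside it.

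The labels were checked against the targeted gene and against marker genes. By the authors' deposited tables, Trp53cor1 was 0.852 FPKM in WT heart and 0.710 FPKM in WT hindlimb, and it was listed at 0 in both KO organs. Liver and lung had 0.0351 and 0.104 FPKM in WT and were not tested for this gene. Each organ held its own markers, with 10 cardiomyocyte genes summing to 29353 FPKM in WT heart, 10 skeletal muscle genes to 1388 FPKM in WT hindlimb, 10 hepatoblast genes to 28381 FPKM in WT liver and 9 lung epithelium genes to 990 FPKM in WT lung. In these bulk samples, fewer cells of a type and less RNA per cell cannot be told apart.

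The promoter stretches of 5 of the 8 members called in liver or lung are shown. Polh and Enpp4 were chosen for having 1 direction in all 4 organs. Unc5cl, Mocs1 and Apobec2 were chosen as members that follow each other among those tested in liver. The starts of Apobec2 and Unc5cl are 22.2 kb apart. Each is the 150 bases before the RefSeq start in build GRCm38.p6 (mm10), read 5′ to 3′ on the strand of the gene, with capitals marking a GC box, a CCAAT box or a TATA box. Unc5cl is read from chr17:48454751-48454900 and Mocs1 from chr17:49428214-49428363, both on the plus strand. Apobec2 is read from chr17:48432729-48432878, Polh from chr17:46202642-46202791 and Enpp4 from chr17:44105810-44105959, all on the minus strand.
Unc5cl: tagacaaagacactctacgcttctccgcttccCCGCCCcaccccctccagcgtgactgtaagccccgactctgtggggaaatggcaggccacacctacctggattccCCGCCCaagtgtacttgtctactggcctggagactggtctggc
Mocs1: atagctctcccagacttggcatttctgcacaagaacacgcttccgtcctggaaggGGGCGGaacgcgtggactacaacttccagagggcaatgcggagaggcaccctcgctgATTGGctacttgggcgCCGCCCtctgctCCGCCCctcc
Apobec2: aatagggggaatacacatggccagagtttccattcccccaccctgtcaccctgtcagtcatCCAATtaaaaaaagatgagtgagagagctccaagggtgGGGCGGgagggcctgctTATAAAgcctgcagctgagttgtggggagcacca
Polh: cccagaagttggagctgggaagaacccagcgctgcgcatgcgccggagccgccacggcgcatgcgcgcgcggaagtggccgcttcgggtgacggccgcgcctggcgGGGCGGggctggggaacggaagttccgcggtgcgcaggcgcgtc
Enpp4: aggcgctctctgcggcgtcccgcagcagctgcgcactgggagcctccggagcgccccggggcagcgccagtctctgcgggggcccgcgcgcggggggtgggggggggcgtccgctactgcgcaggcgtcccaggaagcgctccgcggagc

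Motifs were searched on both strands. The GC box of Sp family factors was spelled GGGCGG, and the box bound by the NF-Y factor was spelled CCAAT. The TATA box, where the general transcription machinery can assemble, was spelled TATAAA. The E-box of Myc family factors was spelled CACGTG, and the half-site of p53 was searched by its usual consensus. No motif overlaps another in spelling. Of 32851 RefSeq promoters of the same length, 28.6% held the GC box, 24.5% the CCAAT box, 7.57% the TATA box, 4.3% the E-box and 4.01% the p53 half-site. The stretch before Mocs1 held 3 GC boxes and 1 CCAAT box, that before Unc5cl 2 GC boxes, and that before Polh 1 GC box. Apobec2 had 1 each of the GC, CCAAT and TATA boxes. Of the 3 that are not shown, Sfta2 had 1 GC box, Gm10499 had 1 CCAAT and 1 TATA box, and Trem1 had none of the 5 motifs. Enpp4 had none of the 5 motifs, at a GC content of 80.0% and 21 CpG pairs, and Polh was at 75.3% with 24 CpG pairs, against medians of 54.0% and 4 over all promoters. No E-box or p53 half-site letters were found in the 150 bases of any of the 9 called members with a RefSeq promoter. A match is a description of letters and not a bound site, and RefSeq promoters were matched for 312 of the 469 members.

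Across the 4 organs, 10 members were called in at least 1. Of the 469, 311 were tested in at least 1 organ, 226 were tested in all 4 and 158 in none, and the 10 called members (3.22% of the 311) had 11 calls in all. Over all genes, 254 of the 17733 tested in any organ were called in at least 1, or 1.43%. Polh was the member called in 2 organs, and the other 9 were each called in a single organ.

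The called members lay in 2 stretches of the flank, at 5.59 to 7.17 Mb and at 15.03 to 20.35 Mb from the locus. Few members were tested in part of the gap, with 5 or 6 per organ at 9 to 13 Mb, so calls could hardly be found there. The first 4 Mb (62 to 66 tested members per organ) and the last 4 Mb (8 to 11 tested) held 0 calls among the members. Genes left out by the rule, such as Btbd9 at 30576287 in the first 4 Mb, were not counted there. In heart, 1 of 261 tested members was called, lower in KO, beside 0.228% of all tested genes called in either direction, 0.0717% higher and 0.156% lower per the authors' deposited table. In hindlimb, 1 of 275 was called, higher in KO, beside 0.623% of all tested genes in either direction, 0.272% higher and 0.351% lower. In liver, 5 of 257 were called, which is 1.95% of the tested members, with 2 higher and 3 lower, beside 0.406% of all tested genes in either direction, 0.301% higher and 0.105% lower. In lung, 4 of 253 were called, or 1.58%, with 1 higher and 3 lower, beside 0.707% of all tested genes in either direction, 0.0884% higher and 0.619% lower. The shares of members called in heart (0.383%) and hindlimb (0.364%) each rest on a single gene.

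**Figure D1:**
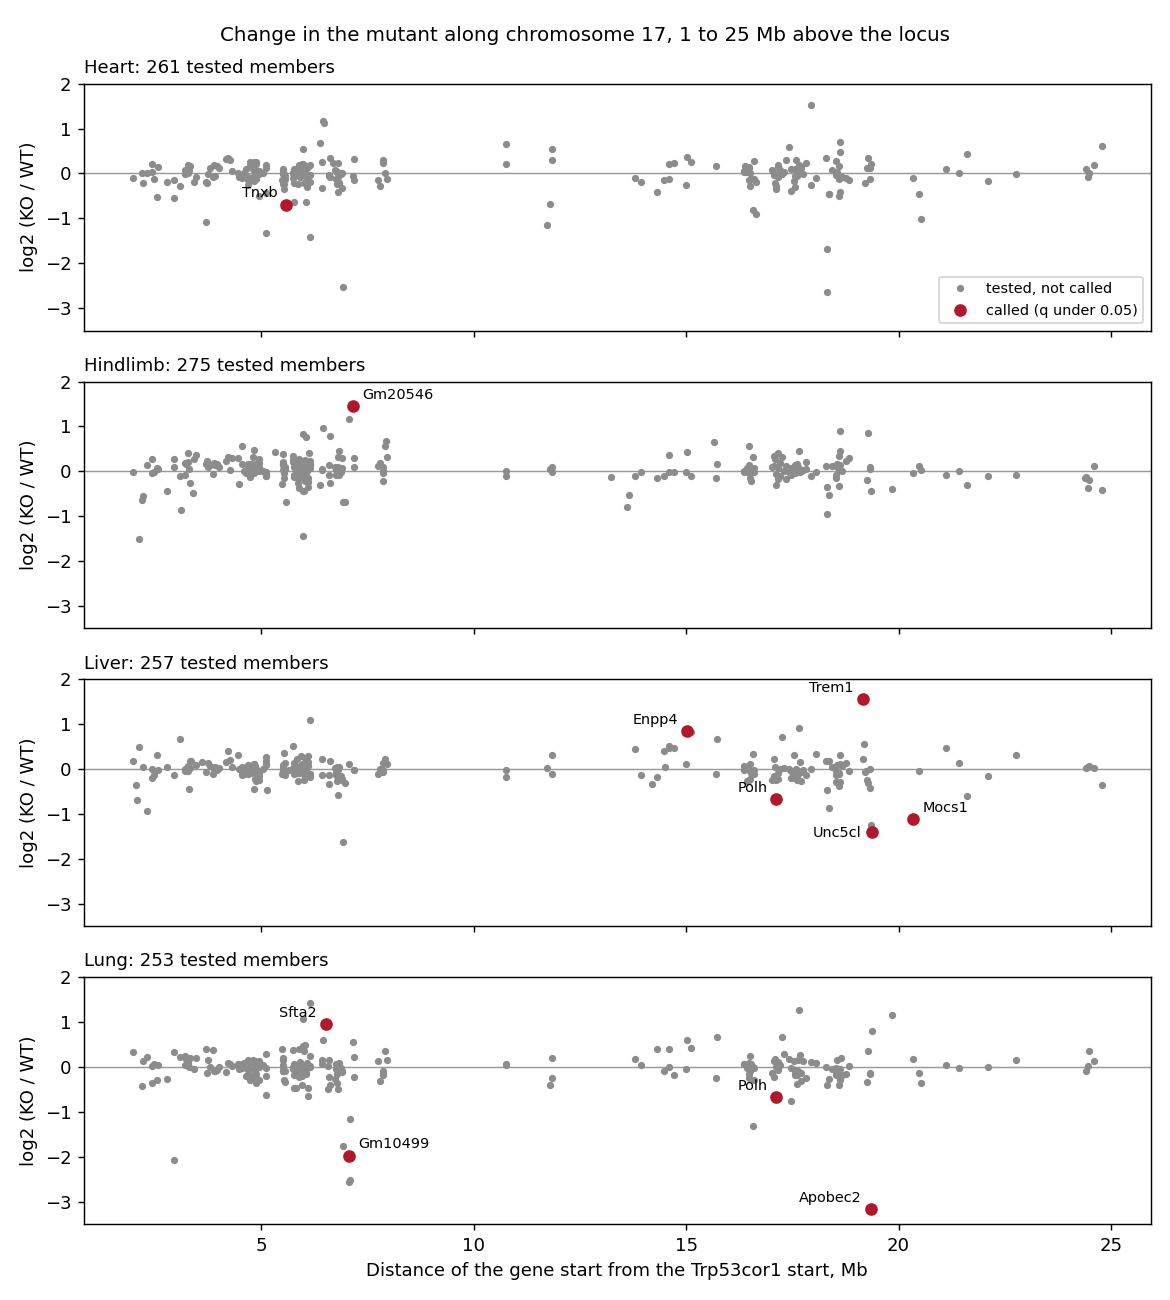
Log2 of KO over WT (vertical axis, the authors' values) against distance of the gene start from the start of Trp53cor1 in Mb, for the tested members of each organ with a value above 0 in both genotypes. Red points are the 11 calls. The 5 liver calls lie at 15.03 to 20.3 Mb, and 2 of the 4 lung calls lie in the same stretch.

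All 5 liver calls lay in the outer part of the flank, with Unc5cl, Mocs1 and Polh lower and Enpp4 and Trem1 higher in KO. Unc5cl encodes a membrane protein with a death domain that signals to NF-kB in epithelial cells. It spans chr17:48454901-48468686 on the plus strand. Unc5cl fell from 4.22 FPKM in WT liver to 1.60 FPKM in KO liver per the authors' deposited table (log2 fold change -1.40, q = 0.0140). In WT lung it was 0.618 FPKM and in KO lung 1.08 FPKM, a log2 fold change of 0.80 that was not called (p = 0.0183, q = 0.782 per the authors' deposited table). Heart, at 0.148 FPKM in WT and 0.283 FPKM in KO, and hindlimb, at 0.0599 and 0.136 FPKM, were not tested. The liver value was thus the only one of the 4 organ values in which KO was below WT. Whether the change differed between organs was not tested.

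Mocs1 encodes the enzymes that start the synthesis of the molybdenum cofactor, which sulfite oxidase and xanthine dehydrogenase need. It spans chr17:49428362-49455435 on the plus strand and is the next tested member above Unc5cl, with its start 973.5 kb away. Mocs1 fell from 20.4 FPKM in WT liver to 9.41 FPKM in KO liver per the authors' deposited table (log2 fold change -1.11, q = 0.0140). The other organs differed by little between genotypes, at 8.05 and 7.53 FPKM in heart, 10.5 and 10.3 FPKM in hindlimb, and 9.69 and 10.999 FPKM in lung, for WT and KO in that order (p from 0.312 to 0.811 per the authors' deposited table). WT liver had the highest level of the 8 pooled values. Daam2, the tested member next to it on the far side, was 1.44 FPKM in WT liver and 1.40 FPKM in KO liver.

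Polh encodes DNA polymerase eta, which copies past DNA damaged by ultraviolet light. It spans chr17:46172004-46202625 on the minus strand. Polh fell from 24.9 FPKM in WT liver to 15.7 FPKM in KO liver, and from 18.2 FPKM in WT lung to 11.5 FPKM in KO lung. Both differences had a log2 fold change of -0.66 per the authors' deposited table and were called, with q = 0.0140 in liver and q = 0.00845 in lung. Heart had 8.99 FPKM in WT and 7.11 FPKM in KO (log2 fold change -0.34, p = 0.0469, not called per the authors' deposited table). Hindlimb had 15.2 FPKM in WT and 12.4 FPKM in KO (log2 fold change -0.30, p = 0.0407, not called per the authors' deposited table). Polh was therefore lower in KO in each of the 4 organs, although liver and lung share 4 embryos and heart and liver share 5. Xpo5, which exports microRNA precursors from the nucleus, starts 230 bases from Polh on the opposite strand. Its pooled values were 19.2 FPKM in WT liver and 16.2 FPKM in KO liver (p = 0.0656), and 27.6 FPKM in both genotypes in lung (p = 0.989), per the authors' deposited table. Xpo5 and the other neighbours given here were chosen after their values were seen. Neighbours were taken among the tested members, so a gene left out by the rule could not be picked.

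Enpp4 encodes a membrane enzyme that splits dinucleotides outside the cell and promotes platelet aggregation. It spans chr17:44096308-44105809 on the minus strand. Enpp4 rose from 5.31 FPKM in WT liver to 9.54 FPKM in KO liver per the authors' deposited table (log2 fold change 0.85, q = 0.0140). In lung it was 2.86 FPKM in WT and 4.35 FPKM in KO (log2 fold change 0.61, p = 0.00055, q = 0.0680 per the authors' deposited table), just above the threshold for a call. Heart (4.77 FPKM in WT, 6.13 FPKM in KO, p = 0.0268) and hindlimb (1.36 and 1.83 FPKM, p = 0.0576) were not called per the authors' deposited table. All 4 organs had the higher value in KO. Its 2 tested neighbours in liver were Enpp5, of the same family, at 5.50 FPKM in WT and 5.97 FPKM in KO (p = 0.505), and Clic5, at 0.663 and 1.18 FPKM (log2 fold change 0.83, p = 0.0006, q = 0.119), per the authors' deposited table.

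Trem1 encodes an activating receptor of neutrophils and monocytes that amplifies inflammatory signals. It spans chr17:48232768-48246924 on the plus strand. Trem1 rose from 0.758 FPKM in WT liver to 2.23 FPKM in KO liver per the authors' deposited table (log2 fold change 1.56, q = 0.0140). It was at or below 0.0672 FPKM in both genotypes of the other 3 organs and was not tested there. Of the 6 Trem receptors among the members, all 6 were tested in liver and Trem1 alone was called, with 3 higher and 3 lower and a median of 0.08. Treml4 had 4.25 FPKM in WT liver and 6.30 FPKM in KO liver (p = 0.0498), Treml1, a receptor of platelets, 15.3 and 12.4 FPKM (p = 0.0678), and Treml2 10.7 and 10.3 FPKM (p = 0.654), per the authors' deposited table. The microglial and macrophage receptor Trem2 had 3.97 and 3.34 FPKM (p = 0.359 per the authors' deposited table). The 8 macrophage markers summed to 369 FPKM in WT liver and 405 FPKM in KO liver, with 7 of 8 higher and 0 called.

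Markers of other tissues also differed between the pooled liver values. The 8 pancreatic exocrine genes summed to 11.002 FPKM in WT liver and 57.0 FPKM in KO liver, with 8 of 8 higher and 4 called, and 1 of the 8 was listed at 0 in WT. The 8 epidermal genes summed to 2.10 FPKM in WT and 5.52 FPKM in KO, with 8 of 8 higher and 2 called. The 9 lung epithelium genes summed to 19.8 and 25.8 FPKM, with 5 of 9 higher and 2 called, and among the 10 cardiomyocyte genes 8 were higher and 1 was called. The 10 red cell genes summed to 45448 and 61770 FPKM, with 7 of 10 higher and 0 called, and the 10 hepatoblast genes to 28381 and 30919 FPKM, with 8 of 10 higher and 0 called. The part of these differences in the 5 liver calls was not tested.

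**Figure D2:**
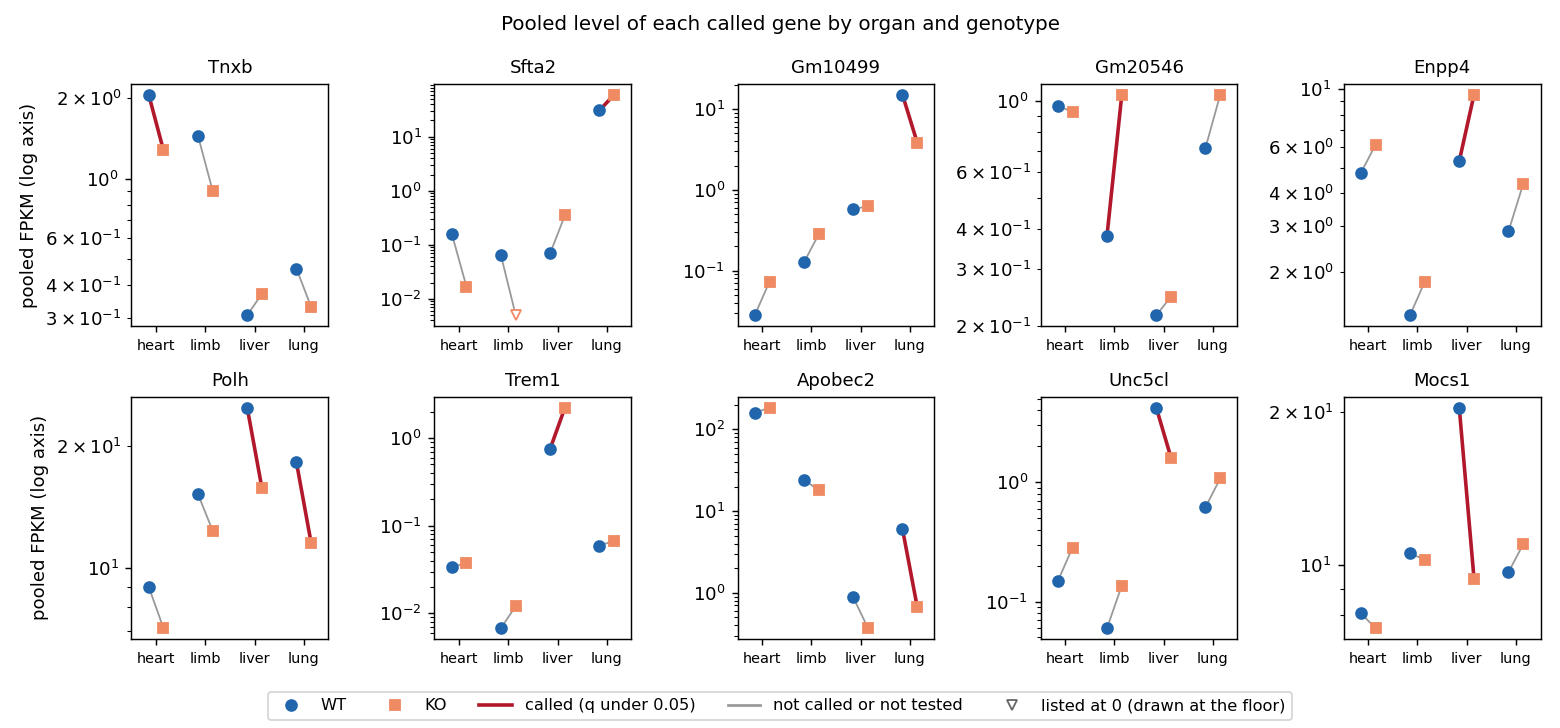
Pooled FPKM (log axis) of the 10 called members in each organ, with WT as circles and KO as squares joined by a line, red where called. Each point is 1 pooled value with no error bar. Polh and Enpp4 slope the same way in all 4 organs, whereas Unc5cl falls in liver and lies higher in KO in the other 3.

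Among tested members in lung the largest difference was in Apobec2, a gene of the cytidine deaminase family expressed in heart and skeletal muscle. It spans chr17:48419231-48432728 on the minus strand. Apobec2 fell from 6.05 FPKM in WT lung to 0.672 FPKM in KO lung per the authors' deposited table (log2 fold change -3.17, q = 0.00845). In heart, where it was highest, it was 159 FPKM in WT and 185 FPKM in KO (log2 fold change 0.22, p = 0.15 per the authors' deposited table). Hindlimb had 24.2 FPKM in WT and 18.0 FPKM in KO (log2 fold change -0.43, p = 0.00915, q = 0.359 per the authors' deposited table). Liver had 0.880 FPKM in WT and 0.369 FPKM in KO (log2 fold change -1.25, p = 0.0289, not called per the authors' deposited table). Unc5cl, whose start is 22.2 kb away, had its higher lung value in KO.

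Muscle markers moved with Apobec2 in lung and hindlimb. The 10 cardiomyocyte markers summed to 944 FPKM in WT lung and 60.2 FPKM in KO lung, with 10 of 10 lower, 8 called and 1 listed at 0 in KO. The 10 skeletal muscle markers summed to 21.7 FPKM in WT lung and 10.0 FPKM in KO lung, with 9 of 10 lower and 2 called. In hindlimb the skeletal muscle markers summed to 1388 FPKM in WT and 935 FPKM in KO, with 10 of 10 lower and 4 called. In liver, where Apobec2 was lower in KO without a call, the skeletal muscle sum was 25.8 FPKM in WT and 23.4 FPKM in KO, with 9 of 10 lower and 0 called. The cardiomyocyte sum there was 18.6 and 27.9985 FPKM, with 8 of 10 higher and 1 called. In heart, where Apobec2 was higher in KO without a call, the cardiomyocyte sum was 29353 and 29037 FPKM, with 7 of 10 lower, and the skeletal muscle sum 964 and 1078 FPKM, with 6 of 10 higher, and 0 were called in either list. The part of muscle cells in the Apobec2 differences was not tested.

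**Figure D3:**
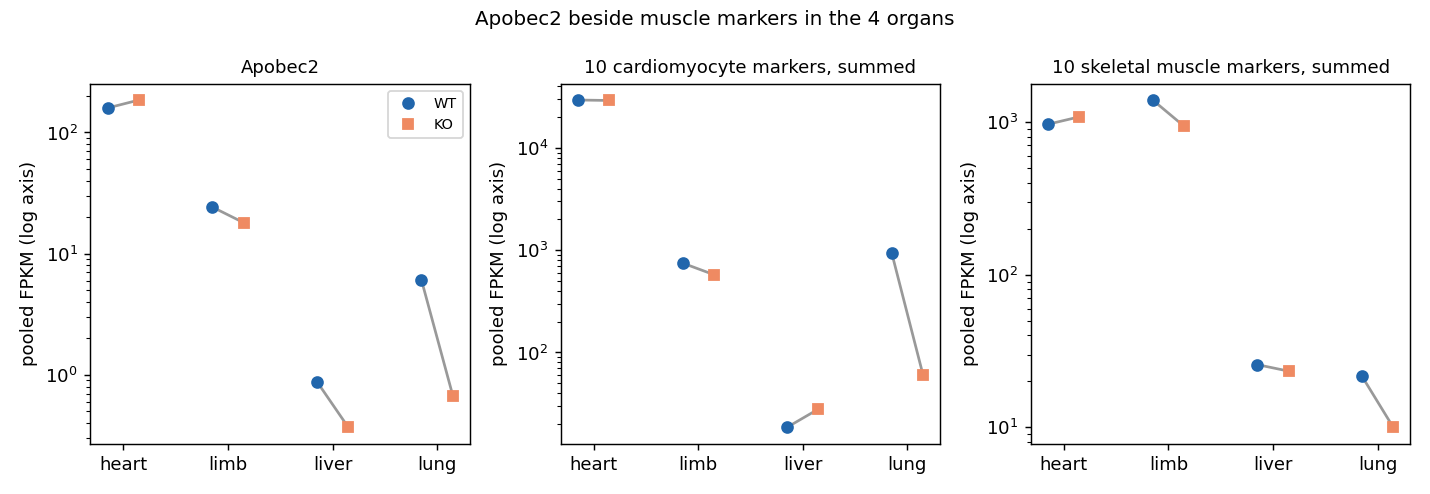
Pooled FPKM (log axis) of Apobec2, of 10 summed cardiomyocyte markers and of 10 summed skeletal muscle markers in each organ, with WT as circles and KO as squares. Apobec2 and both marker sums are lower in KO lung, and the cardiomyocyte sum is 944 FPKM in WT lung against 60.2 FPKM in KO lung.

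Sfta2 encodes a small secreted protein of the lung epithelium related to surfactant. Its annotated span is chr17:35601549-35650571 on the plus strand, and its RefSeq start lies 48159 bases inside that span. Sfta2 rose from 30.7 FPKM in WT lung to 60.0 FPKM in KO lung per the authors' deposited table (log2 fold change 0.97, q = 0.00845). Other organs were at or below 0.354 FPKM in both genotypes and were not tested. The 9 lung epithelium markers summed to 990 FPKM in WT lung and 1025 FPKM in KO lung with 7 of 9 higher and 0 called, and Sftpc led the sum. The part of the epithelium in the Sfta2 difference was not tested. The nearest tested members, Psors1c2 and Dpcr1, had p-values of 0.276 and 0.452 in lung per the authors' deposited table.

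Gm10499 is annotated in the tables as a pseudogene at chr17:36141758-36145744 on the minus strand and is protein coding in RefSeq. Gm10499 fell from 15.1 FPKM in WT lung to 3.85 FPKM in KO lung per the authors' deposited table (log2 fold change -1.97, q = 0.00845). Its value was 0.127 FPKM in WT hindlimb and 0.282 FPKM in KO hindlimb (log2 fold change 1.15, p = 0.0295, not called per the authors' deposited table). Liver had 0.577 and 0.627 FPKM (p = 0.787 per the authors' deposited table), and heart, at 0.0280 and 0.0730 FPKM, was not tested. An exon of Gm10499 overlaps one of 2410017I17Rik on the other strand, and the labels do not say that the libraries kept strand, so reads in that overlap cannot be told apart and both values are uncertain. Exons of 127 of the 469 members overlap an exon of another gene, among them Gm10499 alone of the 10 called. The uncalled members Wiz, Rps28, Rps18, Psmb8, Cfb, C2, Ddr1, Gm8909, Gm20478, Mut, Runx2, Ly6g6e, Tmem151b and Abcc10, named elsewhere in the text, also overlap an exon of another gene.

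The tested members next to Gm10499 also had lower pooled values in KO lung and were not called. Genes with a symbol beginning with H2- were not looked at as neighbours. 2410017I17Rik had 13.6 FPKM in WT lung and 2.32 FPKM in KO lung (log2 fold change -2.55, p = 0.208 per the authors' deposited table). Gm8909, for which RefSeq lists synonyms beginning with H2-, had 27.99 and 4.94 FPKM (log2 fold change -2.50, p = 0.199 per the authors' deposited table). Both were among the 3 members with the largest ratio of WT lung to the next organ. Gm20478 had 5.79 and 2.60 FPKM (log2 fold change -1.15, p = 0.0506 per the authors' deposited table). Exons of Gm20478 and Gm8909 overlap on opposite strands, so reads in that overlap cannot be told apart. Gm8909 in RefSeq spans chr17:36143812-36168602 and so covers 2410017I17Rik and part of Gm10499. Beside the muscle markers, KO lung had lower values of hepatoblast markers, at 22.1 and 15.2 FPKM (9 of 10 lower, 2 called), and of epidermal markers, at 11.7 and 7.10 FPKM (8 of 8 lower, 1 called). The part of these in the Gm10499 and Polh values was not tested.

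Heart and hindlimb had 1 call each. Tnxb encodes tenascin X, a matrix glycoprotein of connective tissue, and spans chr17:34670535-34719815 on the plus strand. Tnxb fell from 2.06 FPKM in WT heart to 1.28 FPKM in KO heart per the authors' deposited table (log2 fold change -0.69, q = 0.0256). Hindlimb had 1.45 FPKM in WT and 0.899 FPKM in KO with the same log2 fold change of -0.69, and it was not called (p = 0.00085, q = 0.0912 per the authors' deposited table). Lung (0.460 and 0.330 FPKM) and liver (0.308 and 0.371 FPKM) were not tested. Atf6b beside it was 21.99 FPKM in WT heart and 21.1 FPKM in KO heart (p = 0.703 per the authors' deposited table). In the same hearts the 10 red cell markers summed to 7995 FPKM in WT and 5700 FPKM in KO, with 8 of 10 lower and 3 called, and the 10 hepatoblast markers to 32.7 and 14.48 FPKM, with 10 of 10 lower and 2 called. The part of these differences in the Tnxb value was not tested.

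Gm20546, a lincRNA at chr17:36248821-36253679 on the plus strand, was the hindlimb call. It rose from 0.381 FPKM in WT hindlimb to 1.05 FPKM in KO hindlimb per the authors' deposited table (log2 fold change 1.46, q = 0.0123). Lung had 0.716 FPKM in WT and 1.05 FPKM in KO (log2 fold change 0.55, p = 0.0842, not called per the authors' deposited table), and heart 0.969 and 0.925 FPKM (p = 0.841 per the authors' deposited table). Liver, at 0.215 and 0.246 FPKM, was not tested. The protein-coding gene Rpp21, whose start is 9.2 kb away, was 22.05 FPKM in WT hindlimb and 23.4 FPKM in KO hindlimb (p = 0.676 per the authors' deposited table). On the other side the nearest tested member was Gm10499, whose start is 103.1 kb away. Gm10499 was also higher in KO hindlimb without a call (log2 fold change 1.15, p = 0.0295 per the authors' deposited table). Red cell markers also had higher hindlimb values in KO, summing to 1649 FPKM in WT and 2181 FPKM in KO, with 6 of 10 higher and 4 called higher. Other lists had lower values, with the epidermal markers at 1151 and 860 FPKM (8 of 8 lower, 2 called) and the cardiomyocyte markers at 748 and 576 FPKM (8 of 10 lower, 3 called), beside the skeletal muscle markers given above. Of the 9 lung epithelium markers, 1 was called higher, at sums of 77.2 and 76.9 FPKM. The part of these differences in the Gm20546 value was not tested.

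At an unadjusted p under 0.05 the flank held 14 of 261 tested members in heart (5.36%, beside 2.95% of all tested genes) and 14 of 275 in hindlimb (5.09%, beside 5.97%) per the authors' deposited table. Liver had 21 of 257 (8.17%, beside 2.79%) and lung 17 of 253 (6.72%, beside 4.68%) per the authors' deposited table. Linked genes of the same embryos are not independent, so these shares are descriptions. In liver 13 of the 21 were higher in KO and 8 lower, beside 325 higher and 73 lower over all genes at that p. In lung 11 were higher and 6 lower, whereas over all genes 196 were higher and 493 lower. Heart had 5 higher and 9 lower, beside 173 and 279, and hindlimb 6 higher and 8 lower, beside 415 and 572.

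Among the uncalled members with the smallest p-values in liver, Pde9a, a phosphodiesterase of cyclic GMP, had 3.44 FPKM in WT and 1.799 FPKM in KO (log2 fold change -0.94, q = 0.0945 per the authors' deposited table). Cd2ap, an adaptor of the actin cytoskeleton, had 16.0 and 21.7 FPKM (log2 fold change 0.44, q = 0.165 per the authors' deposited table). Abcc10, an efflux transporter, had 1.196 and 1.96 FPKM in liver (log2 fold change 0.71, q = 0.214) and 1.88 and 3.00 FPKM in lung (0.68, q = 0.185), per the authors' deposited table. Ubash3a, which restrains T cell receptor signals, had 6.94 and 9.74 FPKM in liver (log2 fold change 0.49, q = 0.261 per the authors' deposited table). Clic5 was also higher in KO lung, at 2.65 FPKM in WT and 3.57 FPKM in KO (p = 0.0113, q = 0.607 per the authors' deposited table). Abcc10, Clic5 and Enpp4 each had the higher value in KO in both liver and lung, organs that share 4 embryos.

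In heart the uncalled members with the smallest p-values were Mut, methylmalonyl-CoA mutase, at 14.8 FPKM in WT and 21.6 FPKM in KO (log2 fold change 0.54, q = 0.433), and Guca1a, a calcium-binding activator of guanylate cyclase, at 1.02 and 0.320 FPKM (-1.68, q = 0.525), per the authors' deposited table. Daam2, a formin of Wnt signalling, had 6.46 and 4.72 FPKM (log2 fold change -0.45, q = 0.594 per the authors' deposited table). Gpr116, an adhesion receptor that controls surfactant in lung, had 10.6 and 8.02 FPKM in heart (log2 fold change -0.40, p = 0.00735) and 7.19 and 9.53 FPKM in lung (0.41, p = 0.0061), per the authors' deposited table. It thus had opposite directions in these organs, neither called, and the difference between organs was not tested. Ddr1, a collagen receptor kinase, had 22.7 FPKM in WT lung and 17.2 FPKM in KO lung (log2 fold change -0.40, q = 0.579 per the authors' deposited table).

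In hindlimb, Zfp57, a zinc finger protein that maintains DNA methylation at imprinted genes, had 47.4 FPKM in WT and 70.1 FPKM in KO (log2 fold change 0.56, q = 0.104 per the authors' deposited table). In lung Zfp57 had 46.9 and 60.1 FPKM (log2 fold change 0.36, p = 0.0422 per the authors' deposited table). Sik1, a salt-inducible kinase, had 15.1 and 11.2 FPKM in hindlimb (log2 fold change -0.43, q = 0.156), and Tmem151b 2.36 and 3.48 FPKM (0.56, q = 0.180), per the authors' deposited table. The adhesion receptor gene Gpr115, highest in hindlimb, had 1.74 and 0.995 FPKM there (log2 fold change -0.80, q = 0.322 per the authors' deposited table).

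Position within the flank was described in 6 windows of 4 Mb. In liver the windows at 13 to 17 Mb and 17 to 21 Mb held all 5 calls, with 1 of 25 and 4 of 62 tested members called and 20.0% and 12.9% at an unadjusted p under 0.05. The liver window at 5 to 9 Mb, which holds most of the major histocompatibility complex, had 0 calls among 89 tested members and 1.12% at that p. It was counted without genes whose symbol begins with H2-, so these values do not describe the whole complex. In lung the window at 5 to 9 Mb held 2 calls (Sfta2 and Gm10499) and that at 17 to 21 Mb held 2 (Polh and Apobec2), with 5.38% and 8.33% at an unadjusted p under 0.05. The lung window at 13 to 17 Mb had the highest such share, 5 of 25 or 20.0%, and 0 calls. In heart the window at 9 to 13 Mb had 4 of 6 tested members at an unadjusted p under 0.05, but it is thinly filled. These 4 were Gm26924, Mut, the red cell gene Rhag, at 0.572 FPKM in WT heart and 0.259 FPKM in KO heart (p = 0.0076), and 9130008F23Rik (p = 0.0336), per the authors' deposited table, the last named after its value was seen. Without that window heart had no window above 7.69%. Median log2 fold changes by window lay between -0.12 and 0.25.

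**Figure D4:**
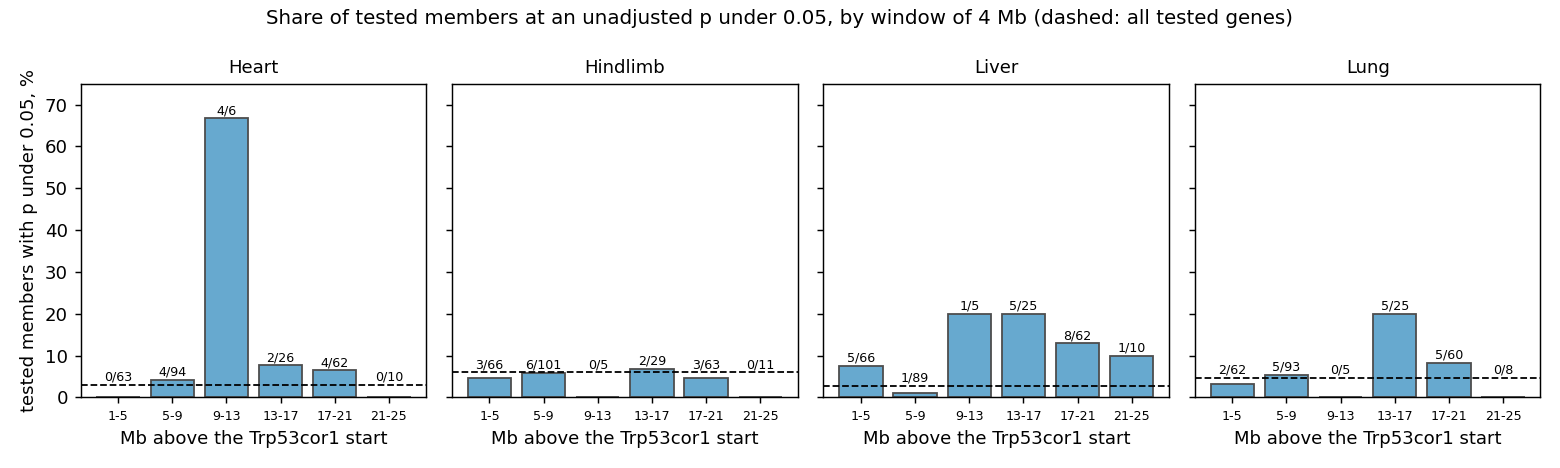
Percent of tested members with an unadjusted p under 0.05 (vertical axis) in windows of 4 Mb by distance above the Trp53cor1 start, for each organ, with the number at that p and the number tested above each bar. The dashed line is the same share over all tested genes of the organ. The heart bar at 9 to 13 Mb rests on 6 tested members, and the liver bars at 13 to 21 Mb on 25 and 62.

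Beside other stretches of chromosome 17, the share of called genes on this flank lay between those of its neighbours. On the other side of the locus, 1 to 25 Mb below it, 412 genes gave shares of 2.01%, 5.13%, 3.83% and 2.93% of tested genes in heart, hindlimb, liver and lung. Beyond 25 Mb above the locus, 267 genes gave 0%, 0%, 0.571% and 0%. Off chromosome 17 the shares were 0.171%, 0.535%, 0.273% and 0.644%. These differences were not tested, since genes linked on a chromosome are not replicates. In hindlimb the share of the members was below that off chromosome 17, and this direction turned with the choice of members. With the 47 genes that the rule leaves out put back, the same window had 0.993% called in hindlimb, 1.05% in heart, 2.11% in lung and 3.14% in liver, while no gene was left out of the other stretches by name.

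The median differences of the members were small, while large ones made up a higher share than over all genes in heart, liver and lung. The median log2 fold change of the tested members was 0.0044 for heart, 0.038 for hindlimb, -0.0198 for liver and -0.0235 for lung, beside -0.0141, 0.0101, -0.003 and -0.0008 over all tested genes per the authors' deposited tables. The median size of the difference without its sign was 0.114 in liver for members and 0.0864 for all tested genes. It was 0.138 and 0.131 in heart, 0.129 and 0.119 in hindlimb, and 0.148 and 0.120 in lung. A log2 fold change of at least 1 in either direction was seen for 11 tested heart members (4.21%, beside 1.81% of all tested genes) and 4 hindlimb members (1.45%, beside 1.56%). It was seen for 6 liver members (2.33%, beside 1.37%) and 12 lung members (4.74%, beside 1.74%). These shares are descriptions with no test. Among the 226 members tested in all 4 organs, 18 were higher in KO in every organ (7.96%, beside 5.37% of all such genes) and 15 lower in every organ (6.64%, beside 5.11%), with embryos shared between organs. Enpp4 was among the 18 and Polh among the 15.

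The gene families of the flank were counted in lists, and 3 of the 64 list and organ pairs held a call, while 9 pairs had no tested member. Over all tested genes 0.228% (heart) to 0.707% (lung) were called, so short lists would mostly hold 0 calls. A count of 0 below is therefore a description and not a result about a family. All 5 measured antigen processing genes, which act in the presentation of peptides on class I molecules, were tested in each organ. Of them 0 were called per the authors' deposited tables. In liver Psmb8, a subunit of the immunoproteasome, had 8.20 FPKM in WT and 9.37 FPKM in KO, and the 5 genes had a median of 0.11, with 5 of 5 higher. In the other organs more of them were lower, 3 of 5 in heart and 4 of 5 in hindlimb and in lung, at medians of -0.06, -0.06 and -0.05. Tap2, which pumps peptides into the endoplasmic reticulum, was 1.21 FPKM in WT heart and 0.483 FPKM in KO heart (log2 fold change -1.32, p = 0.0190, not called per the authors' deposited table), and it was the only one of the 5 with an unadjusted p under 0.05 in any organ. Tap2 was named after its values were seen. All 4 complement genes had their highest WT level in liver. Cfb, factor B, had 125 FPKM in WT liver and 137 FPKM in KO liver (p = 0.456 per the authors' deposited table), and C2 15.8 and 16.6 FPKM. C4a was less restricted, at 1.04 FPKM in WT liver beside 0.691 FPKM in WT lung. None of the 4 complement genes was called in any organ. Of the 12 tumour necrosis factor family and class III genes, 5 to 9 were tested per organ and 0 were called. Lst1, a gene of myeloid cells, was highest in liver at 23.5 FPKM in WT and 24.9 FPKM in KO.

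The Zfp list had 15 members, all tested in heart, hindlimb and lung and 14 in liver, and 0 were called. In hindlimb 14 of the 15 were higher in KO with a median of 0.16, beside 0.0101 over all tested genes, and 2, Zfp57 and Zfp101, had an unadjusted p under 0.05. The same list had medians of 0.05 in heart and 0.05 in liver, with 0 at that p. In lung the median was 0.0085, with 8 higher and 7 lower, and 2, Zfp57 and Zfp871, were at that p. Zfp871 had 10.004 FPKM in WT lung and 13.2 FPKM in KO lung (log2 fold change 0.40, p = 0.0053, q = 0.3998 per the authors' deposited table). Zfp101 had 16.7 FPKM in WT hindlimb and 20.7 FPKM in KO hindlimb (p = 0.0287 per the authors' deposited table).

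The 11 chromatin genes and the 19 transcription factor and Notch receptor genes had 0 calls in the 4 organs. Brd2, a bromodomain protein, was close to level in all of them, from 57.5 FPKM in WT liver and 57.8 FPKM in KO liver to 88.3 FPKM in WT lung and 91.0 FPKM in KO lung. Wiz, a zinc finger partner of the histone methyltransferase Ehmt2, had 13.3 FPKM in WT liver and 9.70 FPKM in KO liver (log2 fold change -0.45, p = 0.003, q = 0.369 per the authors' deposited table). Nfya, a subunit of the factor that binds CCAAT boxes, had 31.9 and 24.02 FPKM in liver (log2 fold change -0.41, p = 0.0088, q = 0.690 per the authors' deposited table). In the other 3 organs Nfya had p-values of 0.438 to 0.584 per the authors' deposited table.

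The remaining lists also lacked calls apart from the gene models. The 9 mitochondrial genes had 8 of 9 higher in KO heart with a median of 0.17 and 7 of 9 lower in KO lung with a median of -0.14, beside medians of 0.0205 in hindlimb and -0.0205 in liver. Ndufv3, a subunit of respiratory complex I, had 306 and 352 FPKM in heart and 108 and 84.1 FPKM in lung (p = 0.228 and 0.0592 per the authors' deposited table). The 4 heat shock chaperones were led by Hsp90ab1, and 0 were called. Of 12 ubiquitin ligase genes 8 or 9 were tested per organ with 0 called, and the 9 cytochrome P450 genes had 0 calls, with Cyp39a1, which hydroxylates oxysterols, at 2.91 FPKM in WT liver and 4.13 FPKM in KO liver (p = 0.0063, q = 0.561 per the authors' deposited table). None of the 49 olfactory receptor genes was tested in any organ, and their summed level was at most 0.103 FPKM in WT. Of 116 gene models, 31 to 37 were tested per organ, and the calls were Gm20546 in hindlimb and Gm10499 in lung.

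None of the 5 members highest in WT was called in any organ. Over all tested genes 0.228% (heart) to 0.707% (lung) were called, so any 5 genes would mostly hold 0 calls. In every organ the top 5 in WT were Rps28 and Rps18, of the small ribosomal subunit, Hsp90ab1, the chaperone HSP90 beta, Tubb5, a beta tubulin, and the gene model Gm26924. Rps18 ranged from 914 FPKM in WT heart to 2492 FPKM in WT lung. Gm26924 was 350 FPKM in WT heart and 549 FPKM in KO heart (log2 fold change 0.65, p = 0.0135, not called per the authors' deposited table). The organ tables were scaled separately, so levels between organs are set side by side without a test. At 1 FPKM or more in either genotype, heart had 215 members, hindlimb 230, liver 223 and lung 228.

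Some members marked a single organ. Apom, an apolipoprotein of high density lipoprotein, had 379 FPKM in WT liver and at most 0.512 FPKM in WT elsewhere, and KO liver had 373 FPKM (p = 0.877 per the authors' deposited table). Rhag, which encodes a membrane glycoprotein of red cells, was 171 FPKM in WT liver and 174 FPKM in KO liver. Tff3, a trefoil factor of mucosal epithelia, had 11.8 and 9.30 FPKM in liver (p = 0.219 per the authors' deposited table). In heart Rcan2, an inhibitor of calcineurin, was highest at 31.9 FPKM in WT and 37.5 FPKM in KO, and Clic5 at 12.006 and 14.2 FPKM, where neither was called. In hindlimb Gm7325, which RefSeq names Mymx, the myoblast fusion peptide, had 18.8 and 16.2 FPKM, and Runx2, the regulator of bone formation, 6.78 and 7.55 FPKM (p = 0.286 and 0.606 per the authors' deposited table). Ly6g6e, the third of the hindlimb set, had 5.46 and 4.03 FPKM (p = 0.155 per the authors' deposited table). Of the 12 members chosen for the largest ratio to the next organ, 2 were called in the lung table, Sfta2 and Apobec2, and the latter was highest in heart.

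**Figure D5:**
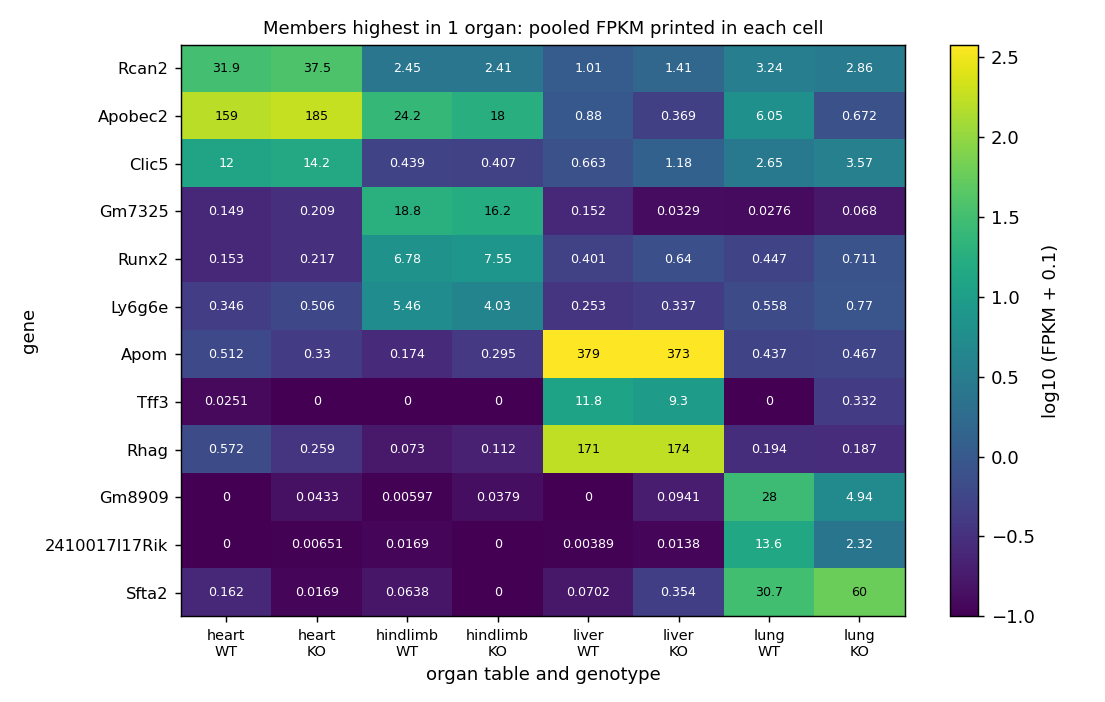
Pooled FPKM of 12 members, the 3 per organ with the largest ratio of WT level to the next organ, in the 8 combinations of organ and genotype, with color on a log10 scale of FPKM plus 0.1 and the FPKM printed in each cell. Sfta2, 2410017I17Rik and Gm8909 mark lung, and of these the last 2 have lower KO values that were not called.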

How the data were processed

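CASAVA 1.8.2 and TopHat2 are named in the submitters' processing notes, with build mm10. The authors deposited, per the file headers, 1 FPKM value per gene and genotype and organ, their log2 fold change of KO over WT, a test statistic (a score, not used here), a p-value and a q-value. No source used here names the program behind them. Rows repeated by exon were reduced to 1 per gene, since none of the 26754 genes had more than 1 value. Starts were taken from the exon rows by strand.

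A member was tested where the authors' status was OK. The planned tests on single libraries were replaced by the authors' q-value under 0.05, as the tables hold 1 value per genotype. The smallest deposited p-value was 5e-05 in each organ. All 11 calls of members were at that value, so their q-values do not rank them within an organ. Readjusting the deposited p-values by the Benjamini-Hochberg method returned the q-values within 5.2e-07, which was also tested on simulated data. Python 3.11.15 and pandas 2.3.3 were used.

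Named are Unc5cl, every called member in all 4 organs, the 5 uncalled members with the smallest p per organ at 1 FPKM or more, the 5 highest in WT, the 3 with the largest ratio to the next organ at 5 FPKM or more, some of up to 4 chosen per gene list, and the genes at the window ends. No member was listed at 0 in 1 genotype and at 0.5 FPKM or more in the other. The members, the 16 gene lists and the 10 marker lists were chosen with earlier results of these data known. Fold changes are not given where a genotype is listed at 0. Alternatives were other thresholds, filters, members and pseudocounts of 0.1 and 1 FPKM. The reporter assay of the series was not analysed here.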

Additional observations from a re-analysis of the deposited data

How the results depend on the processing

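Counts of called members moved with who counts as a member and with the thresholds used. With the 47 genes left out by the rule put back, higher calls came to 2 for heart, 3 for hindlimb, 4 for liver and 3 for lung, and lower calls in liver were 5. At 2-fold or more, heart had 0 lower, liver 1 higher and 2 lower, and lung 0 higher and 2 lower. At q under 0.1, hindlimb had 1 lower, liver 4 lower and lung 3 higher. Neither threshold changed another count. In the first 12 Mb alone, liver had 0 higher and 0 lower calls and lung 1 lower, and in the last 12 Mb heart had 0 lower, hindlimb 0 higher and lung 0 higher and 2 lower. Every call lay at the smallest p-value, so counting only genes at that value could not change a count. Keeping only genes at 1 FPKM or more, or readjusting p-values over genes off chromosome 17 and the members, left every count of calls as it was. Gene midpoints in place of starts did so as well. Leaving out the 127 members whose exons overlap those of another gene, an alternative chosen after seeing the data, took lower calls in lung to 2 and changed no other count. The 28 recomputed medians lay between -0.0271 and 0.0431, and 0 moved by 0.1 or more on the log2 scale. That limit is larger than any of these medians, so it could hardly have been reached. Of 570 fold changes of named genes recomputed with a pseudocount, 76 moved by at least 0.1. A pseudocount added to both genotypes cannot change the sign, so direction was not checked this way. No paired analysis was possible because the tables hold 1 pooled value per genotype, and for the same reason leaving out single libraries and a litter block were not run. With read depth and the spread between embryos not given, no interval accompanies a value, and levels under about 1 FPKM were often not tested.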
